A study of Rattus norvegicus with 20 samples.

Results

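The genes described here are targets of ATF4 and of the unfolded protein response in the hippocampus of female rats. They were found by their symbols: 38 genes were listed, and 37 of them had a row among the 17168 genes of each deposited table (the expression of Edem1 was not analysed here). They fall into 17 genes of an ATF4 arm (transcription factors, stress effectors and amino acid genes) and 20 genes of an ER arm (sensors, chaperones, disulfide isomerases and degradation factors of the endoplasmic reticulum, ER). The mean count over the 10 rats of each table was at least 10 for 35 of the 37, all but Atf3 and Trib3.

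When unfolded proteins gather in the ER, the sensor kinase PERK phosphorylates the translation factor eIF2α. Most translation then slows while ATF4 is translated more, and ATF4 switches on genes for amino acid synthesis, amino acid uptake and tRNA charging. The other sensors, IRE1 and ATF6, act through the transcription factors XBP1 and cleaved ATF6 on ER chaperones and on ER-associated degradation. Dibenzoylmethane is known for reversing the block that phosphorylated eIF2α puts on translation, and diazoxide for opening ATP-sensitive potassium channels.

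Each rat gave 1 RNAseq library of hippocampus at 4 months of age. The genotype comparison set 5 transgenic-AD rats without treatment (TGNT) against 5 wild-type rats without treatment (WTNT), all on normal chow. The treatment comparison set 6 transgenic-AD rats that ate diazoxide (DZ, 10 mg/kg/day) and dibenzoylmethane (DIB, 200 mg/kg/day) in their chow from 52 days of age (TGTR) against 4 further TGNT rats. No wild-type rat was treated, so the treatment was measured in transgenic rats alone, and the drugs were given together. Transgenic rats were TgF344-AD, which carry human APPsw and PS1-∆E9 under the prion promoter in every TGNT and TGTR group. The labels name the left hippocampus, while the study's methods name the right. Nothing in the labels pools animals. The paper calls the wild-type rats littermates of the transgenic rats, but which rats share a litter is not given in the sources used here. The tables hold different TGNT rats and were normalised apart, so levels are compared within a table.

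Estimated counts summed to between 5848458 and 9926088 per rat in the genotype tables and to between 9215039 and 14175594 in the treatment tables. A single read stood for 0.102 to 0.171 and for 0.0706 to 0.101 units of level (RPM, reads scaled to a common library total with TMM factors). App counts, which include reads from the transgene, matched the labels: WTNT rats had 1031 to 1160.0 RPM, and TGNT rats of the same table had 2071 to 2364. All 10 hippocampal markers had reads in every rat. Before any result, 3 treated libraries stood apart. The summed level of 12 choroid plexus markers was 3834 RPM in TGTR replicate 5, of which Ttr made up 2501 RPM, and 314 RPM in TGTR replicate 6, against 95.2 to 142 RPM in TGNT rats and between 103 and 148 RPM among the other 4 treated rats. Blood markers summed to 1744 RPM in TGTR replicate 4 and to between 207 and 335 RPM in the other 9 rats.

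ER-arm genes are known for a promoter element, the ER stress response element (ERSE), at which ATF6 binds together with NF-Y. It reads CCAAT, any 9 bases, then CCACG. A shorter form, ERSE-II, reads ATTGG, any base, then CCACG. Promoter windows of RefSeq (assembly GRCr8, 250 bases before to 50 bases after each annotated start) were searched on both strands. Of the 38 listed genes, 31 had a window, 15 in the ATF4 arm and 16 in the ER arm, where Edem1 is included, and 30 of them were measured. An ERSE match lay in 22 of all 33469 windows (0.0657%), and 7 of the 16 ER-arm genes with a window held one, against 0 of 15 in the ATF4 arm. The matches of these 7 genes are shown. Capitals mark the fixed bases, lower case marks the free bases, and each is written 5′ to 3′ on the strand that reads CCAAT:
Hspa5: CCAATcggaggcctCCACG
Xbp1: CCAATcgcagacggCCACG
Hsp90b1, far site: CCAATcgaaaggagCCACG
Hsp90b1, near site: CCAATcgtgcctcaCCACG
Dnajc3: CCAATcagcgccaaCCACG
Creld2: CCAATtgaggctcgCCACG
Calr: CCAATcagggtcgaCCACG
Canx: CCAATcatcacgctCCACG

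The Hspa5 match began 43 bases upstream of the annotated start (GRCr8, chr3:38452973-38452991, plus strand), and the Xbp1 match 65 bases upstream (chr14:84604558-84604576, plus strand). Hsp90b1 held its pair 176 and 72 bases upstream (gene on the minus strand, chr7:23012451-23012469 and chr7:23012347-23012365). The Dnajc3 match began 133 bases upstream (chr15:102432534-102432552), that of Creld2 145 (chr7:121789239-121789257), that of Calr 232 (chr19:40213135-40213153) and that of Canx 230 (chr10:35158069-35158087).

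ERSE-II lay in 0.0508% of all windows and in 3 of the 16 ER-arm genes, namely Herpud1, Dnajb11 and Hyou1, the last of which held it at 2 places. The XBP1 element TGACGTGG was in 0.595% of windows and in 1 ER-arm gene, Hyou1, where it overlapped an ERSE-II match. The ATF4 element (CARE), searched as TGATG, any base, then AA, is shorter and common, in 3.98% of windows. It lay in 3 of 15 ATF4-arm genes (Chac1, Trib3 and Aars, the last with 2 matches) and in 1 ER-arm gene, Herpud1. Whole windows are printed for Hspa5, the main ER chaperone, for Herpud1, which held both ERSE-II and CARE, for Dnajb9 and for Chac1 of the ATF4 arm. Among the members, Dnajb9 had the smallest p of the treatment comparison, and its window held no match to any of these elements. Capitals mark the whole matched element, as read on the strand of the gene:
Hspa5, chr3:38452766-38453065, plus strand: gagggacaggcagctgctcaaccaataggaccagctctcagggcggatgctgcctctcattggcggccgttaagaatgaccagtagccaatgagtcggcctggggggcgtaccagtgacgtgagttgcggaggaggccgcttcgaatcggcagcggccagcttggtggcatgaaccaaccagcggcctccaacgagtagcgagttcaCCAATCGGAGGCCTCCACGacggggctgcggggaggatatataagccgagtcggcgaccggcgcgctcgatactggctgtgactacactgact
Herpud1, chr19:10614658-10614957, minus strand: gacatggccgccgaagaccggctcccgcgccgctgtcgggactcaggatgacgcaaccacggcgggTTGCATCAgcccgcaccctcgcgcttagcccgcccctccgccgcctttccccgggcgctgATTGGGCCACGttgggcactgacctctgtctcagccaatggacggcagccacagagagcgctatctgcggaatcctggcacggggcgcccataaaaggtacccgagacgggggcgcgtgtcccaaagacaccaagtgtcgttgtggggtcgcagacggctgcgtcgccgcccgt
Dnajb9, chr6:67002002-67002301, minus strand: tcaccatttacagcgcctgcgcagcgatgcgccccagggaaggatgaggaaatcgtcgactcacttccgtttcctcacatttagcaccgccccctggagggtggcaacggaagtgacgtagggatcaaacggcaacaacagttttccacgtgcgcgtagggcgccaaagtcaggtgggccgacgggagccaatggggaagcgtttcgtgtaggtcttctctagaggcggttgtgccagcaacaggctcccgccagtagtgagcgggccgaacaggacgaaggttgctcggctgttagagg
Chac1, chr3:126795881-126796180, plus strand: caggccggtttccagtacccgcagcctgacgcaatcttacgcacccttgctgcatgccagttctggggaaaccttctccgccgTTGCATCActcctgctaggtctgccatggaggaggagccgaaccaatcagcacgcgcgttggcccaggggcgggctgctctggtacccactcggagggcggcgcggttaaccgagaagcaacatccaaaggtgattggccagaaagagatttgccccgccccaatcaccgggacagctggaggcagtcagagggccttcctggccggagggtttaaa

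The absence of a match says only that these letters are not in this window.

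The genotype comparison asked how the transgenes bear on hippocampal expression at 4 months. No gene of either arm passed the test between TGNT and WTNT rats. With edgeR's quasi-likelihood test and Benjamini-Hochberg adjustment over all genes, 0 of 37 passed an adjusted p under 0.05 together with a change of 1.5-fold or more, where 2 of all genes did (0.0116%). At an unadjusted p under 0.05, 0 of 37 were higher and 0 were lower, against 1.72% and 1.5% of all genes, and the other tools run (DESeq2, limma-trend and the exact and likelihood ratio tests of edgeR) also gave 0. The smallest unadjusted p was 0.0972, for Creld2, an ER-stress-inducible ER protein, at a log2 fold change of 0.25. In whole tissue, a difference in the cells of a type and a difference in RNA per cell cannot be told apart.

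Of the 37 members, 18 were above 0 and 19 below, and the median log2 fold change was -0.0013 in the ATF4 arm and 0.00063 in the ER arm, next to 0.0062 over all genes averaging 10 or more counts. The RPM of the groups overlapped in all 37 genes, where 0.268% of all genes lay apart with TGNT higher and 0.245% with TGNT lower. Among all genes averaging 10 or more counts, 52.4% were above 0. The ER-arm genes above 0 numbered 10 of 20. With single rats left out they ranged from 6, without WTNT replicate 4, to 12, without WTNT replicate 2. Those of the ATF4 arm averaging 10 or more counts ranged from 5 to 10 of 15 with single rats left out.

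Among transcription factors, Atf4, the head of its arm, measured 104, 114, 123, 111 and 116 RPM in the 5 WTNT rats and 115, 123, 118, 109 and 110 RPM in the 5 TGNT rats. The groups overlapped along nearly their whole range, and the log2 fold change was 0.02 (95% interval -0.11 to 0.15). Ddit3, which encodes the stress factor CHOP, measured 13.8, 14.8, 11.2, 13.7 and 10.2 RPM in WTNT and 11.7, 14.8, 13.3, 12.01 and 11.7 RPM in TGNT rats, and its log2 fold change was -0.0013 (95% interval -0.27 to 0.27). Its estimated counts were whole numbers in 0 of 10 rats, a sign of reads divided with another gene, so its level is uncertain. The same holds for Sesn2, whole in 2 of 10 rats of this table and 0 of 10 in the other. Atf5, a relative of Atf4, measured 28.8, 26.998, 21.3, 24.9 and 25.5 RPM in WTNT rats and 25.5, 30.6, 17.4, 17.9 and 17.4 RPM in TGNT rats. It had the largest difference of the ATF4-arm genes averaging 10 or more counts, at a log2 fold change of -0.23 (95% interval -0.55 to 0.10), with 3 of 5 TGNT rats below every WTNT rat. Atf3 measured 0.133 to 1.25 RPM (1 to 10 counts), and Trib3, a pseudokinase, had a read in 1 of 10 rats.

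Asns, asparagine synthetase and a standard ATF4 target, measured 126, 136, 104, 129 and 104 RPM in WTNT rats and 136, 102, 130, 138 and 132 RPM in TGNT rats. Only TGNT replicate 2 lay below the WTNT rats, and the log2 fold change was 0.10 (95% interval -0.10 to 0.30). The other amino acid genes (Psat1 and Phgdh of serine synthesis, Slc3a2 and Slc7a5 of the amino acid exchanger, Aars and Gars, which charge tRNA) had log2 fold changes from -0.09 to 0.08. The stress effectors Chac1, which breaks down glutathione, and Sesn2 and Ddit4, which restrain mTORC1, had log2 fold changes from -0.14 to -0.01.

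In the ER arm, Hspa5, the chaperone BiP that also holds the sensors inactive, measured 563, 620, 506, 536 and 566 RPM in WTNT rats and 535, 605, 535, 526 and 541 RPM in TGNT rats. The groups overlapped, and the log2 fold change was -0.02 (95% interval -0.16 to 0.12). Xbp1 measured 97.1, 104, 95.6, 104 and 97.8 RPM in WTNT rats and 108, 103, 104, 105 and 101 RPM in TGNT rats. Its log2 fold change was 0.07 (95% interval -0.05 to 0.19), and the exact two-sided permutation test of the group means gave p = 0.0794. Counts per gene do not separate spliced from unspliced Xbp1. The widest interval of the arm was that of Sdf2l1, a partner of BiP's co-chaperones, at 0.35 (95% interval -0.15 to 0.86), from 22 to 57 counts per rat.

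A fold change of 1.5 lay outside the 95% interval for 15 of 15 ATF4-arm genes averaging 10 or more counts and for 19 of 20 ER-arm genes, all but Sdf2l1. Of 35 further ATF4 pathway genes, 0 were higher and 1 was lower at an unadjusted p under 0.05: Slc7a1, a transporter of cationic amino acids, at 89.7 ± 4.50 RPM (SD, n = 5) in WTNT rats against 76.6 ± 5.81 RPM (SD, n = 5) in TGNT rats. Its log2 fold change was -0.22 with an edgeR quasi-likelihood adjusted p of 1. Of 43 further genes of ER folding and transport, 0 were higher and 0 lower at that level. Over all genes, 1.72% were higher and 1.5% lower at that level. Among cell type markers, oligodendrocyte and myelin markers were higher in TGNT rats in 0 of 8 genes (2 lower at that level), hippocampal in 0 of 10, microglial in 8 of 8, choroid plexus in 3 of 12 (1 lower at that level), blood in 4 of 5, and astrocyte, endothelial and thalamic markers in 3 of 6 each, and their part in the values above was not tested.

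**Figure D1:**
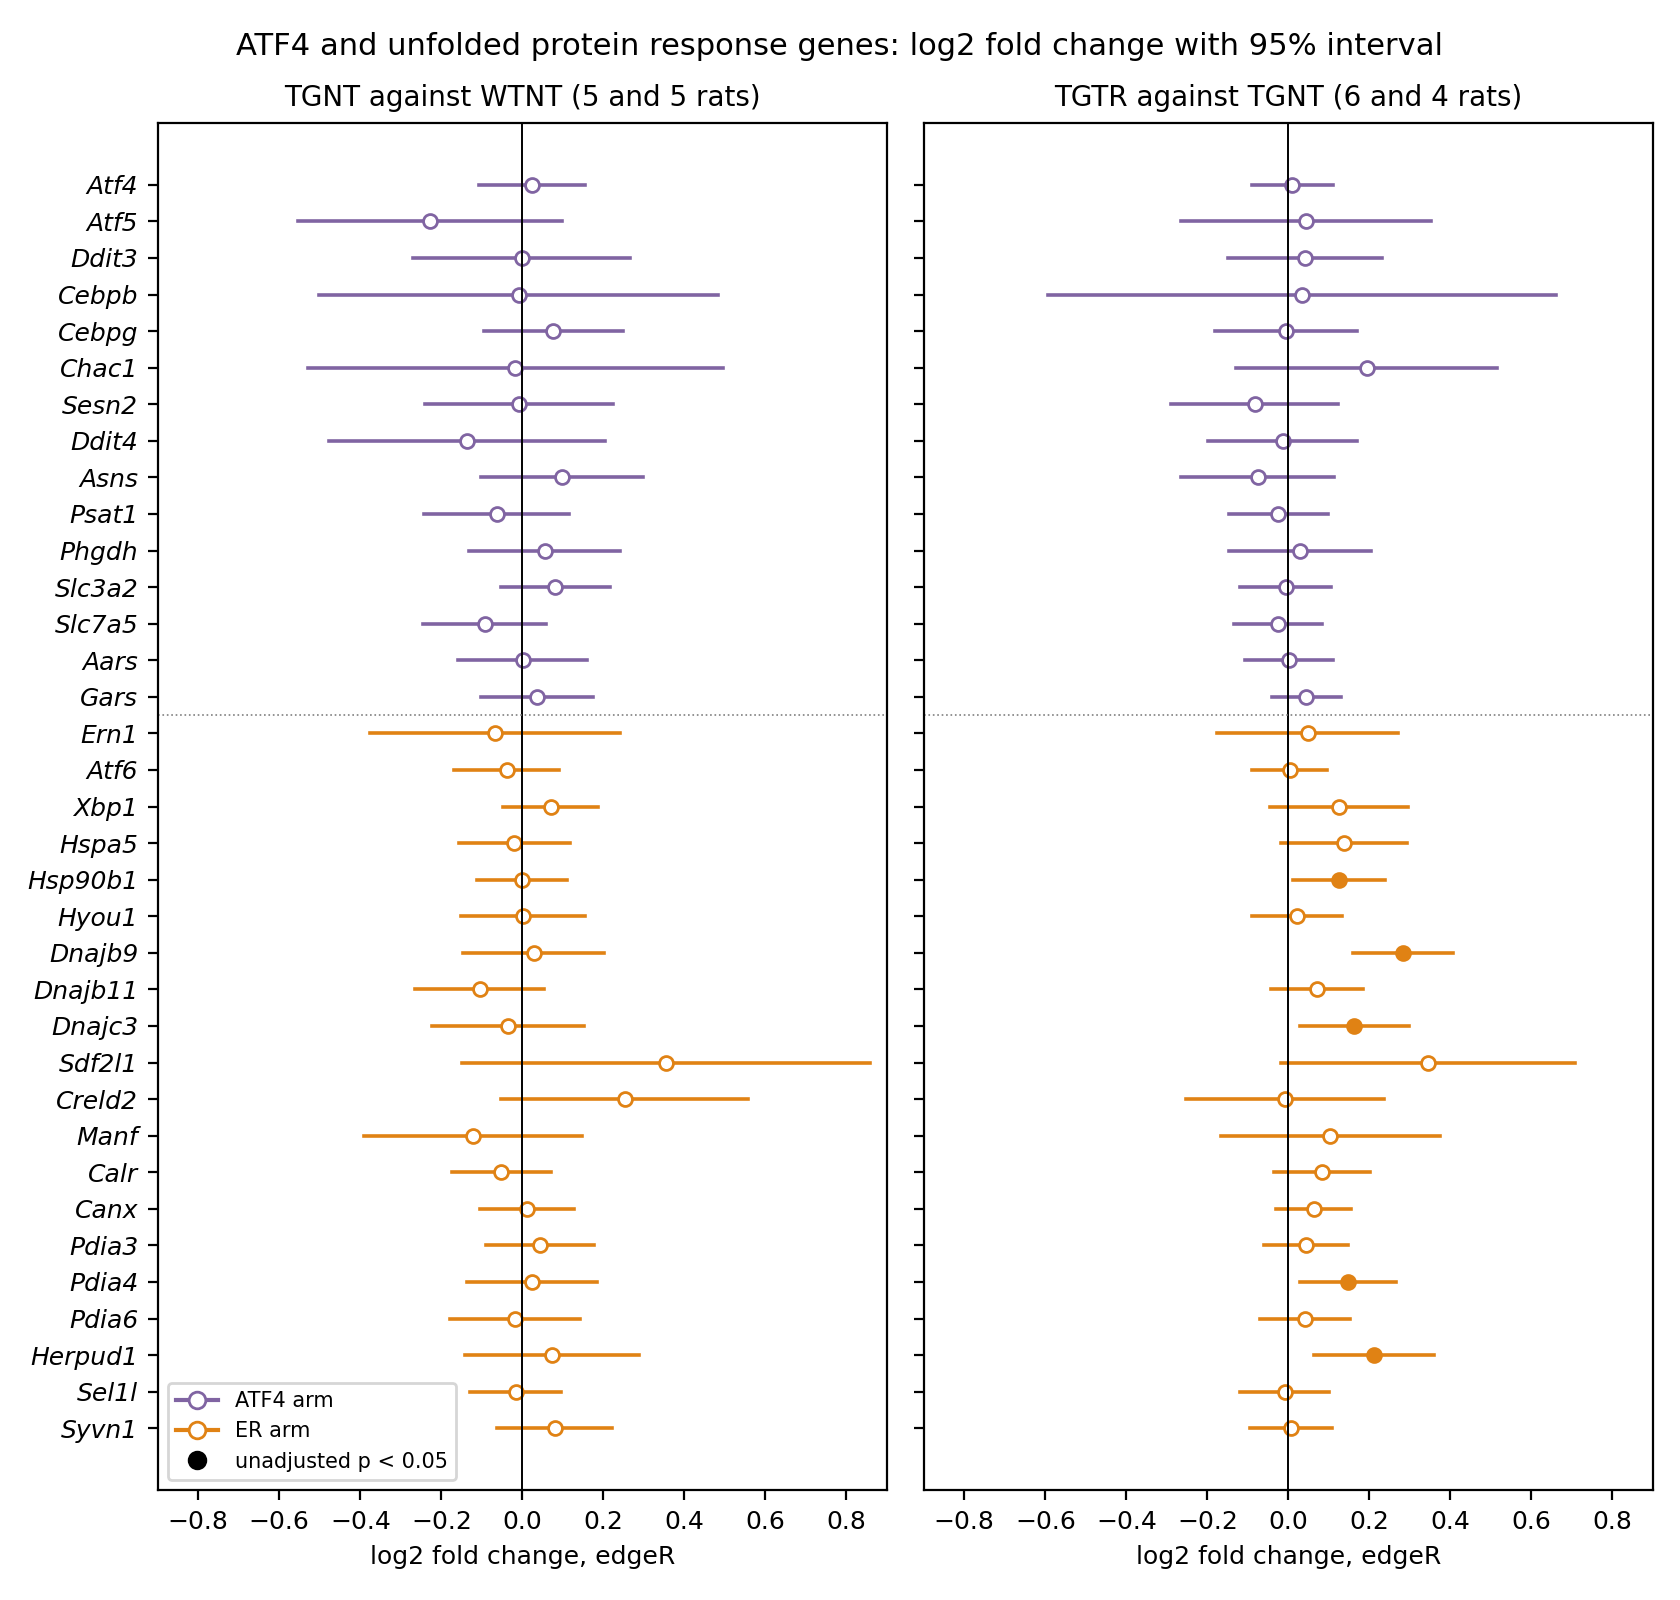
Log2 fold change (x axis, edgeR) with its 95% interval for the 35 genes averaging 10 or more counts (y axis, by role), TGNT against WTNT on the left and TGTR against TGNT on the right. Filled points have an unadjusted p under 0.05: there are 0 on the left and 5 on the right, all in the ER arm (orange), and 0 in the ATF4 arm (purple).

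The treatment comparison asked what the drugs in the chow change in transgenic rats. No gene of either arm passed the adjusted test. The 5 genes with an unadjusted p under 0.05 were all higher in TGTR rats and all of the ER arm: Dnajb9, Herpud1, Pdia4, Dnajc3 and Hsp90b1, by 1.09 to 1.22-fold. The ATF4 arm had 0 such genes in either direction. Of the 20 ER-arm genes 18 were above 0, with a median log2 fold change of 0.08, and of the 17 ATF4-arm genes 9 were, with a median of 0.0019.

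These counts are read against all genes of the table. With edgeR's quasi-likelihood test and Benjamini-Hochberg adjustment, 0 of 37 members and 0 of all genes (0.0%) passed an adjusted p under 0.05 together with a change of 1.5-fold or more, and DESeq2, limma-trend and the exact and likelihood ratio tests of edgeR also called 0 members, while over all genes the exact test called 4, the likelihood ratio test 5, DESeq2 3 and limma-trend 0. At an unadjusted p under 0.05, 2.98% of all genes, and 3.9% of those averaging 10 or more counts, were higher, against 5 of 20 in the ER arm. On the lower side, 1.93% of all genes and 0 of 37 members lay below that p. Of genes averaging 10 or more counts 50.1% were above 0, and their median log2 fold change was 0.00025. The difference between the arms was not tested.

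Dnajb9, also called ERdj4, a co-chaperone that hands misfolded proteins to degradation and keeps IRE1 in check, had the smallest p of the members. The TGNT rats measured 31.6, 33.0, 34.6 and 36.8 RPM, and the 6 TGTR rats had a lowest value of 39.4, a median of 40.5 and a highest value of 45.2 RPM. Every TGTR rat lay above every TGNT rat, as in 0.594% of all genes and in no other member, and 0 of 37 members lay wholly below, as 0.553% of all genes did. Means were 34.0 ± 2.23 RPM (SD, n = 4) and 41.3 ± 2.09 RPM (SD, n = 6). The log2 fold change was 0.28 (SE 0.057, a fold of 1.22 with a 95% interval of 1.12 to 1.32), with an unadjusted p of 0.000279 and an adjusted p of 0.527. The exact two-sided permutation test gave p = 0.00476, the smallest that 4 against 6 rats allow. The choroid plexus library, TGTR replicate 5, held the highest value, and without it the log2 fold change was 0.26.

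Herpud1, an ER membrane protein of the degradation machinery, measured 36.5, 41.5, 35.8 and 38.5 RPM in TGNT rats, and 38.2, 43.7 and 48.8 RPM as the lowest, median and highest of the TGTR rats. Of the TGTR rats 5 lay above all TGNT rats, and the lowest, TGTR replicate 4, was the one with high blood markers. The log2 fold change was 0.21 (SE 0.0685), with an unadjusted p of 0.00868, an adjusted p of 0.964 and an exact permutation p of 0.0286. The other degradation genes, Sel1l and Syvn1, which together form the core of the HRD1 complex, had log2 fold changes of -0.01 and 0.01.

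Pdia4, a disulfide isomerase, measured 46.9, 47.1, 42.3 and 45.6 RPM in TGNT rats, and 44.8, 51.3 and 52.6 RPM as the lowest, median and highest of the TGTR rats. TGTR replicate 4 was again the lowest and the sole TGTR rat within the TGNT range. The log2 fold change was 0.15 (SE 0.055), with an unadjusted p of 0.0187 and an exact permutation p of 0.0381. Pdia3 and Pdia6, the other isomerases, had log2 fold changes of 0.04 each.

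Dnajc3, the co-chaperone p58IPK, which also inhibits PERK, measured 24.97, 26.4, 25.4 and 25.7 RPM in TGNT rats, and 26.0, 28.5 and 31.3 RPM as the lowest, median and highest of the TGTR rats. Its TGNT values were the tightest of these genes, and 5 of 6 TGTR rats lay above them all. The log2 fold change was 0.16 (SE 0.0623), with an unadjusted p of 0.0219 and an exact permutation p of 0.019.

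Hsp90b1, the ER chaperone GRP94, measured 426, 406, 433 and 438 RPM in TGNT rats, and 421, 462 and 493 RPM as the lowest, median and highest of the TGTR rats. Again 5 of 6 TGTR rats lay above every TGNT rat, the exception being TGTR replicate 4. The log2 fold change was 0.12 (SE 0.0523), with an unadjusted p of 0.0335 and an exact permutation p of 0.0381. The adjusted p of Pdia4, Dnajc3 and Hsp90b1 was 0.964 each.

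**Figure D2:**
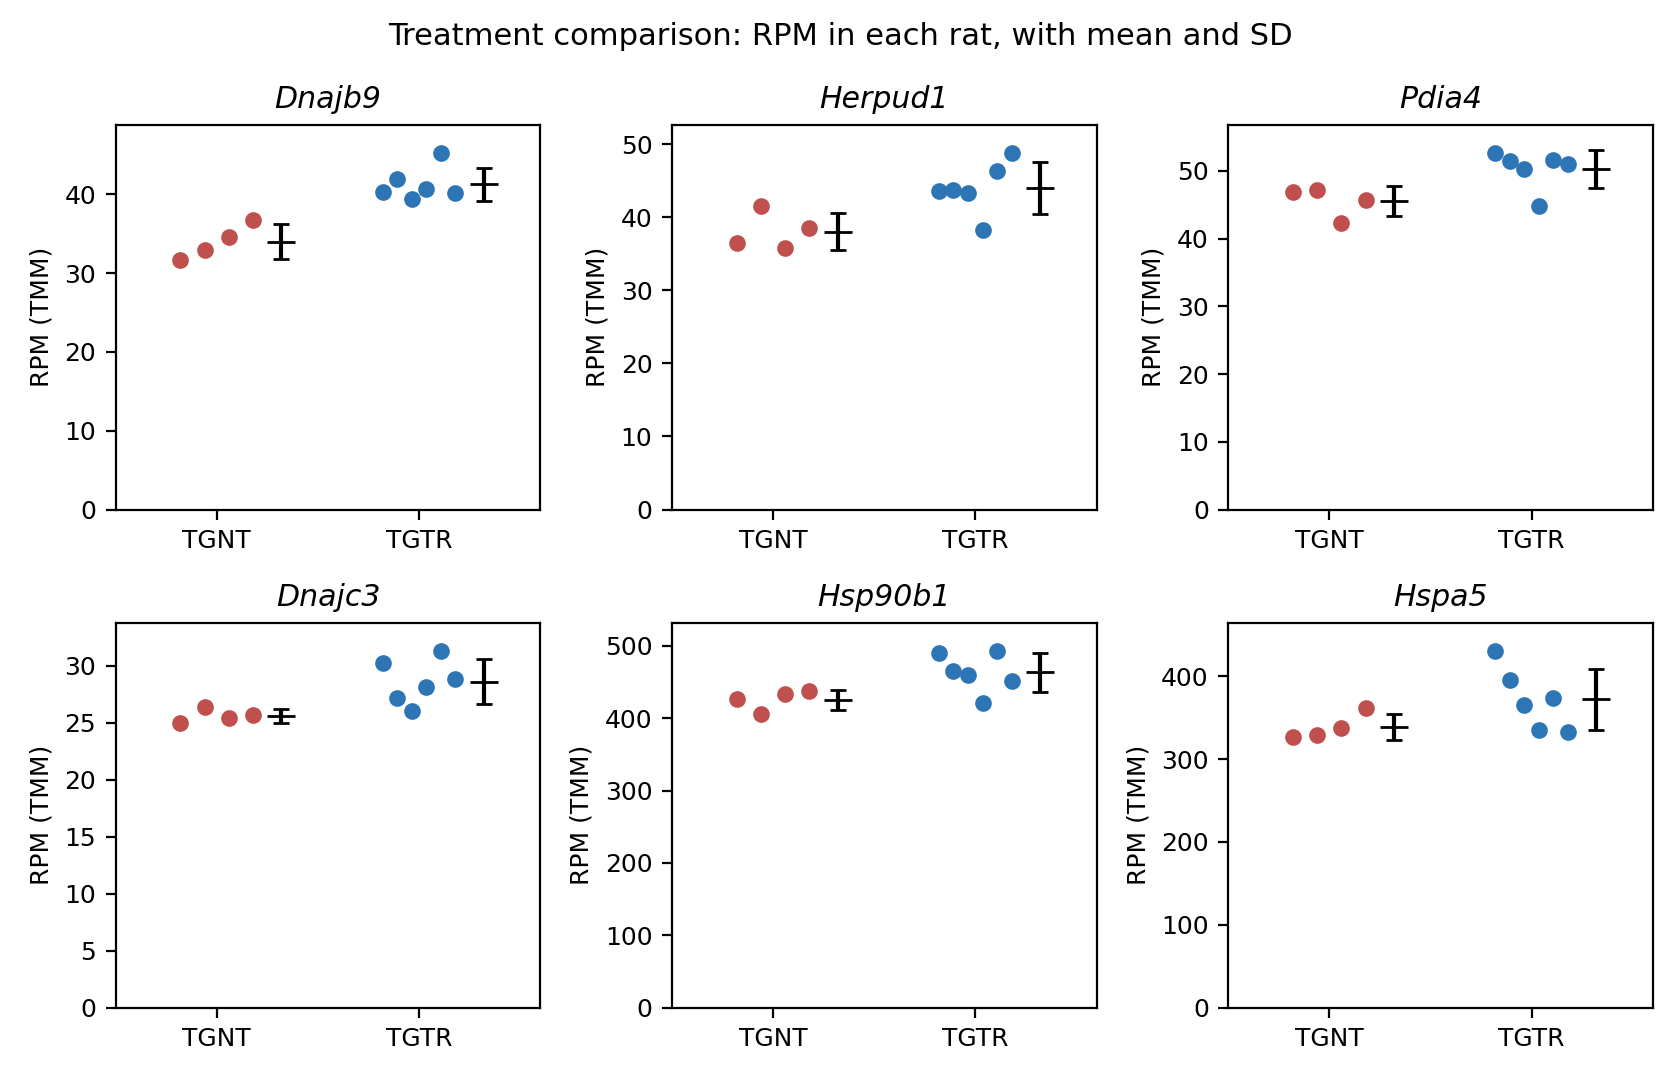
RPM (y axis, from 0) of 6 ER-arm genes in each TGNT (red) and TGTR (blue) rat of the treatment comparison, points in replicate order, with the mean and SD in black. The groups lie apart in Dnajb9 and overlap in the other 5 genes, including Hspa5.

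Hspa5 measured 327, 330, 337 and 362 RPM in TGNT rats, and 332, 369 and 430 RPM as the lowest, median and highest of the TGTR rats. The groups overlapped, with 4 of 6 TGTR rats above all TGNT rats, and the log2 fold change was 0.14 (95% interval -0.02 to 0.29), with an unadjusted p of 0.0782. Xbp1 measured 79.4, 83.5, 95.9 and 89.5 RPM in TGNT rats and 84.5, 91.9 and 113 RPM as the lowest, median and highest of the TGTR rats. Here 2 of 6 TGTR rats lay above the TGNT range, and the log2 fold change was 0.12 (95% interval -0.05 to 0.29). The sensors Ern1, which encodes IRE1, and Atf6 had log2 fold changes of 0.05 and 0.0029.

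By role, 10 of 11 chaperones and co-chaperones, 3 of 3 isomerases, 2 of 3 degradation genes and 3 of 3 sensors and factors were above 0. Those above 0 without passing an unadjusted p of 0.05 included Sdf2l1 at 0.35, Manf, a secreted ER protein, at 0.10, and the lectin chaperones Calr at 0.08 and Canx at 0.06. Creld2, at -0.01, and Sel1l were the ER-arm genes below 0. A fold change of 1.5 lay outside the 95% interval for 19 of 20 ER-arm genes, all but Sdf2l1.

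Of the 15 amino acid and ATF4 genes averaging 10 or more counts 8 were above 0, and this count moved with single libraries: it was 12 without TGTR replicate 5, 5 without TGTR replicate 4 and 13 when libraries were scaled by size alone. Atf4 measured 123, 122, 114 and 119 RPM in TGNT rats, and 114, 119 and 129 RPM as the lowest, median and highest of the TGTR rats, with a log2 fold change of 0.01 (95% interval -0.09 to 0.11). Ddit3 measured 13.8, 14.5, 16.7 and 14.7 RPM in TGNT rats and 13.6, 15.05 and 17.2 RPM in TGTR rats in the same order, with a log2 fold change of 0.04 (95% interval -0.15 to 0.23). Both genes overlapped throughout. Asns measured 84.6, 111, 109 and 106 RPM in TGNT rats and 78.7, 100.3 and 105 RPM in TGTR rats, with a log2 fold change of -0.08 (95% interval -0.27 to 0.11). A single rat of each group was low for it, TGNT replicate 1 and TGTR replicate 5. Over the 7 amino acid genes the log2 fold changes ran from -0.08 to 0.04. The stress effectors Chac1, Sesn2 and Ddit4 were at 0.19, -0.08 and -0.01. Atf3, at 5 to 12 counts per rat, was at 0.51 with an unadjusted p of 0.171, and Trib3 had 0 to 3 counts. A fold change of 1.5 lay outside the interval for 14 of the 15 ATF4-arm genes averaging 10 or more counts, all but Cebpb.

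**Figure D3:**
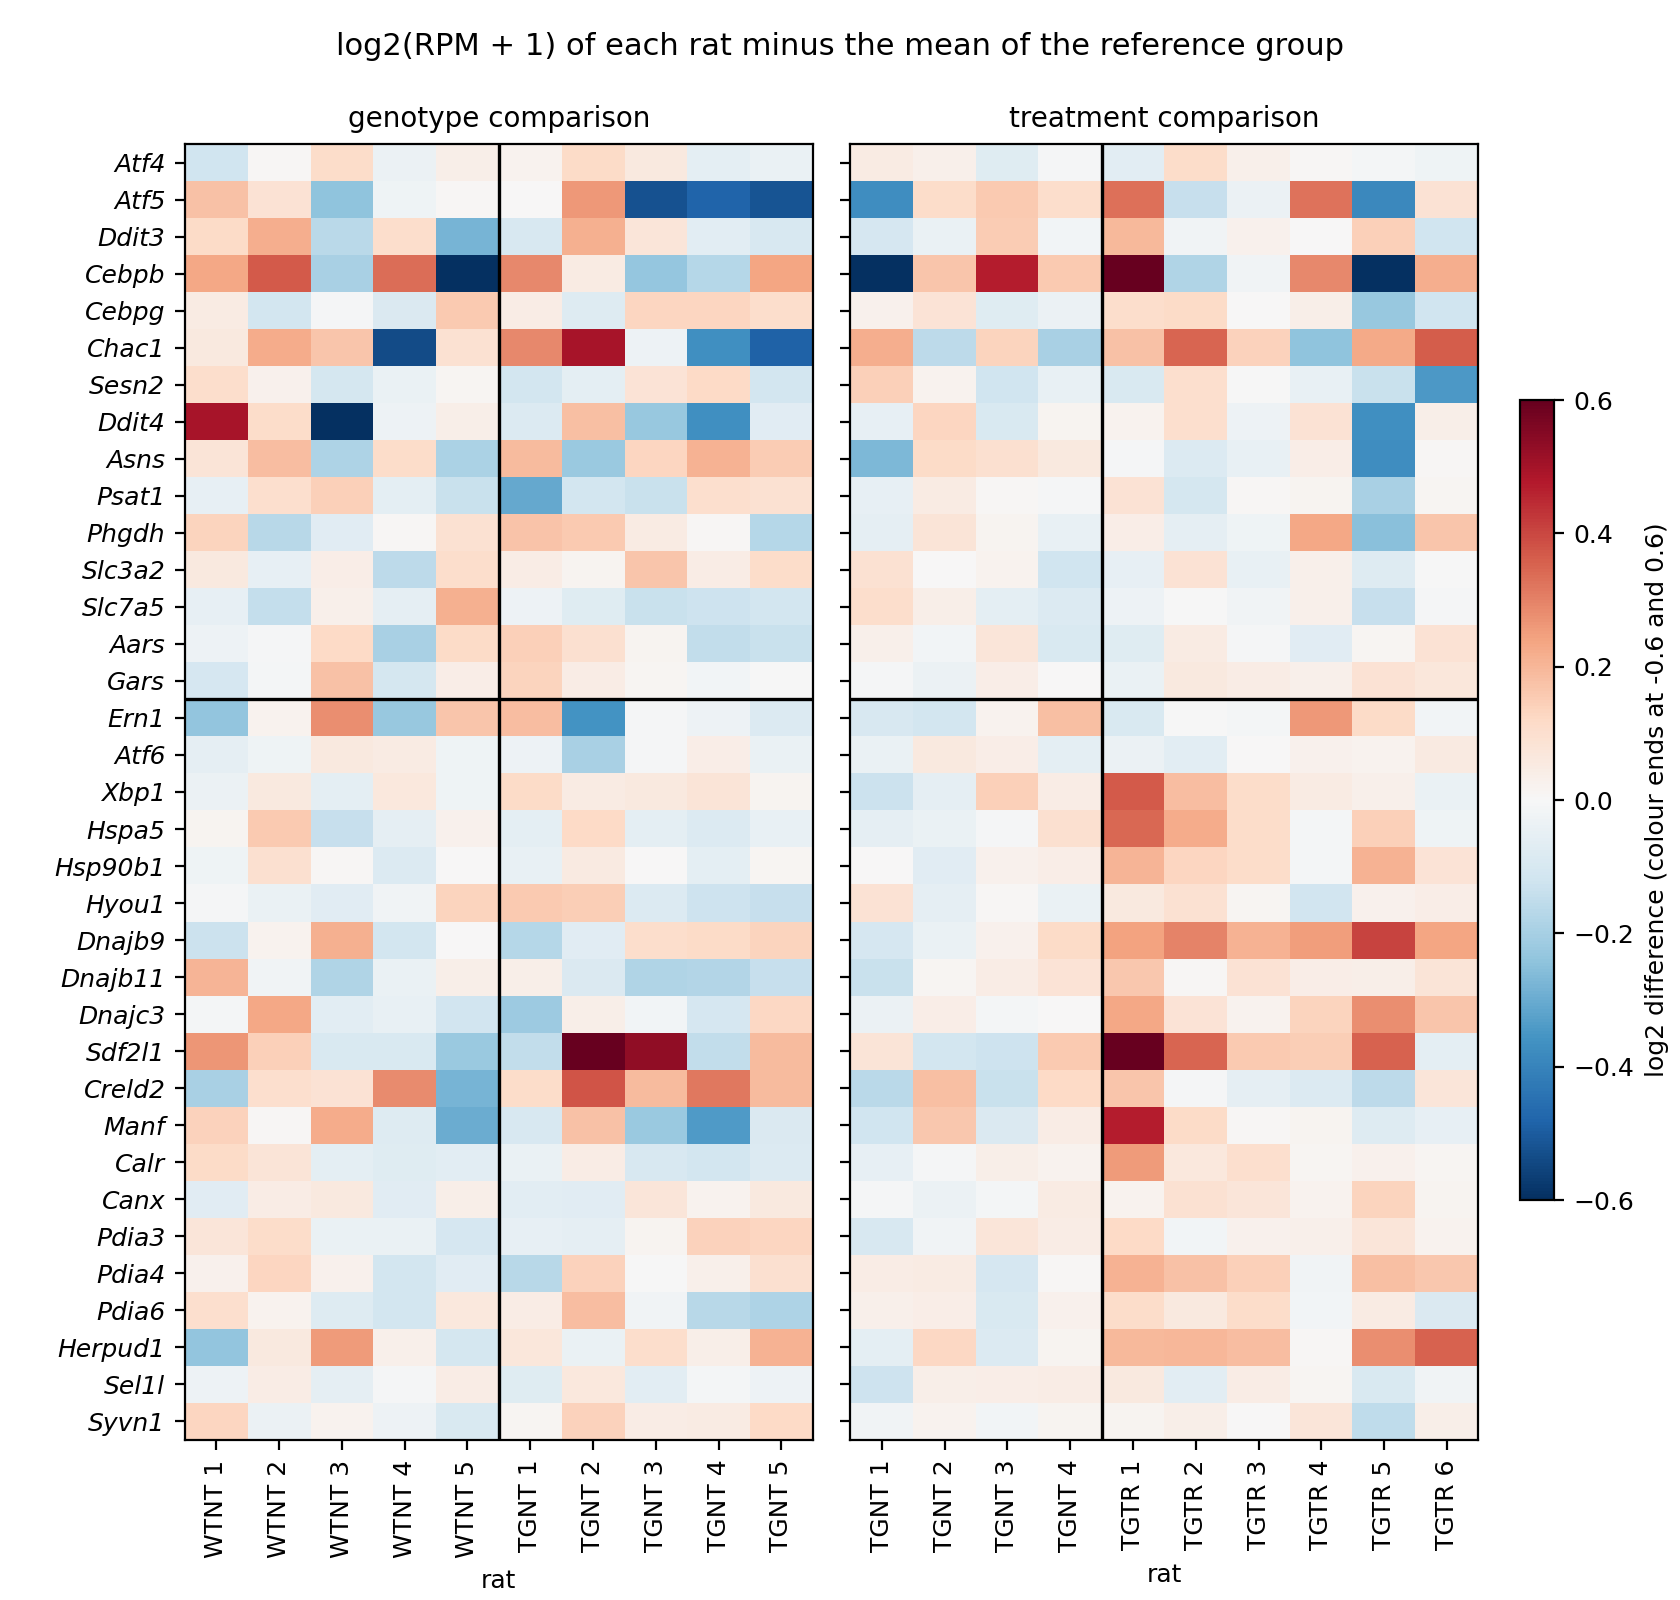
Log2(RPM + 1) of each rat minus the mean of the reference group (colour, red higher and blue lower) for the 35 genes averaging 10 or more counts (rows, ATF4 arm above the horizontal line, ER arm below) and each rat (columns, reference group left of the vertical line). In the treatment comparison the ER-arm rows are mostly red in TGTR rats, most so in TGTR replicate 1, and the ATF4-arm rows are mixed, with TGTR replicate 5 blue in many.

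As a mean over its 20 genes in each rat, the ER arm lay between -0.05 and 0.05 in TGNT rats and between 0.04 and 0.19 in TGTR rats, on the log2 scale relative to the TGNT mean. The lowest TGTR rat (replicate 4) was thus below the highest TGNT rat, and TGTR replicate 1 was the highest at 0.19. The mean over the 15 ATF4-arm genes lay between -0.07 and 0.05 in TGNT rats and between -0.18 and 0.09 in TGTR rats. TGTR replicate 5, the library with the choroid plexus signal, was the lowest of all for the ATF4 arm while its ER arm, at 0.09, was in the middle of its group. In the genotype comparison the ER-arm means were -0.04 to 0.06 in WTNT and -0.03 to 0.08 in TGNT rats, and those of the ATF4 arm were -0.05 to 0.08 and -0.08 to 0.07.

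**Figure D4:**
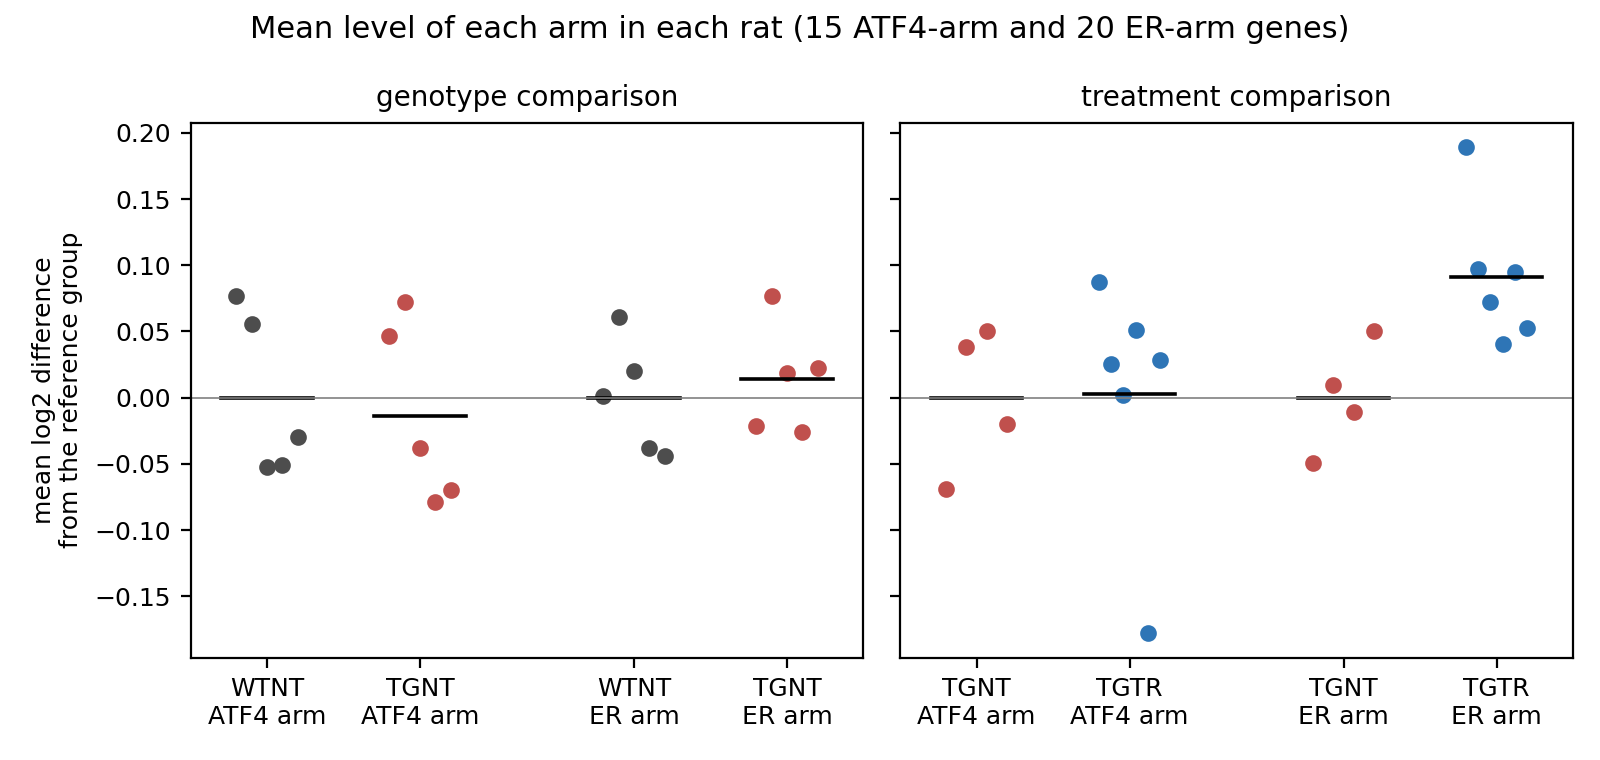
Mean log2 difference from the reference group over the genes of an arm (y axis) in each rat, with the group mean as a black line, for the genotype comparison (left) and the treatment comparison (right). TGTR rats lie at 0.04 to 0.19 for the ER arm and at -0.18 to 0.09 for the ATF4 arm.

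Markers of other cells also differed between TGTR and TGNT rats. Choroid plexus markers were higher in TGTR rats in 12 of 12 genes (6 at an unadjusted p under 0.05). Their sums stood out only in TGTR replicates 5 and 6, at 3834 and 314 RPM. The remaining TGTR rats had 103 to 148 RPM and TGNT rats 95.2 to 142 RPM. Endothelial and pericyte markers were higher in 6 of 6 (3 at that p), with sums between 201 and 231 RPM in TGNT rats, and between 212 and 263 in TGTR rats. Oligodendrocyte and myelin markers were higher in 8 of 8 (1 at that p), with sums of 4200 to 6671 and 4948 to 7561 RPM, and blood markers in 5 of 5 (0 at that p). Astrocyte markers were higher in 0 of 6, microglial in 1 of 8, hippocampal in 3 of 10 and thalamic in 4 of 6, of which 5 had reads (1 was higher and 1 lower at that p). The part of these cells in the ER-arm values was not tested. With single rats left out the ER-arm genes above 0 ranged from 16 of 20, without TGTR replicate 4 or 6, to 20 of 20, without TGTR replicate 5. Without TGTR replicates 5 and 6 together 19 were, with a median of 0.09, and the unadjusted p was then 0.0591 for Pdia4, 0.0885 for Dnajc3 and 0.0701 for Hsp90b1.

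The 5 genes did not hold equally. Dnajb9 had an unadjusted p under 0.05 in all 22 alternative fits, Herpud1 in 21, Pdia4 in 19, Dnajc3 in 17 and Hsp90b1 in 12. The number of members higher at that p ranged from 2, without TGNT replicate 3, to 7, without TGTR replicate 6, when single rats were left out. It was 3 without TGNT replicate 1 and 3 without TGTR replicate 1, and it was 10 when libraries were scaled by their size alone. The number over all genes, in either direction, moved as well. It was 843 in the main fit, 654 without TGNT replicate 3 and 711 without TGTR replicate 6. Without TGNT replicate 1 it was 1207, without TGTR replicate 1 it was 844, and by library size alone it was 1036.

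In other genes of the pathways, 1 of 35 further ATF4 pathway genes was higher at an unadjusted p under 0.05 and 0 were lower. Over all genes, 2.98% were higher and 1.93% lower at that p. The higher ATF4 pathway gene was Slc38a2, a transporter of neutral amino acids, at 119.9 ± 7.09 RPM (SD, n = 4) in TGNT rats against 145 ± 15.2 RPM (SD, n = 6) in TGTR rats. Its groups did not overlap, as in 0.594% of all genes with TGTR higher. The log2 fold change was 0.28 (SE 0.0749), with an unadjusted p of 0.0028 and an adjusted p of 0.941 by edgeR's quasi-likelihood test. Of 43 further genes of ER folding and transport, 26 were above 0, with a median log2 fold change of 0.02. Here 1 was higher at that p, Ssr1, a subunit of the translocon-associated complex, at a log2 fold change of 0.13, and 0 were lower.

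In the ER arm, log2 fold changes of genes whose window held a match overlapped those of genes whose window held none. The 10 measured genes with an ERSE or ERSE-II match had a median log2 fold change of 0.10 in the treatment comparison, with 9 above 0. The 5 with a window and no match (Dnajb9, Sdf2l1, Pdia4, Sel1l and Syvn1) had a median of 0.15, with 4 above 0. In the genotype comparison these medians were 0.00063 and 0.03. The numbers are a description without a test.

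Because group means hide how genes vary from rat to rat, each member was also correlated with Hspa5 and with Asns within groups (log2(RPM + 1), group means removed, 10 rats a table). All genes of a table averaging 10 or more counts were tested, 11355 and 12028, by exact permutation within groups. For either anchor in either table, 0 genes passed an adjusted p under 0.05. The smallest possible exact p was 6.94e-05 in the genotype table and 5.79e-05 in the treatment table. A gene alone at that floor could not pass the adjustment over so many genes, so this count says little about a given gene. The members are therefore described by their coefficients. They share the library and its depth with the anchor.

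Genes of the ER arm leaned toward Hspa5 in both tables, which share no rat. Of the 19 other ER-arm genes 14 had a positive r in the genotype table and 16 in the treatment table, 13 of them in both, where 49.4% and 50.4% of all genes were positive. The median r was 0.27 and 0.38, next to 0.07 and -0.03 for the 15 ATF4-arm genes. An r above 0.5 was found for 7 and 6 of the 19, against 6.65% and 6.43% of all genes. An unadjusted exact p under 0.05 was found for 6 and 6 of the 19, against 3.4% and 3.23% of all genes, and Atf6, with a negative r, was 1 of the 6 in each. The median r of the ER arm without the 2 rats farthest from the median of Hspa5 was 0.03 in the genotype table. In the treatment table it was 0.34. With single rats left out it was 0.217 to 0.365 in the genotype table and 0.312 to 0.473 in the treatment table. Leaving out the rats most extreme in Hspa5 also narrows its spread, so the fall cannot tell whether the lean was general or carried by those rats.

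Calr, Hsp90b1, Pdia6 and Sdf2l1 had an r above 0.5 in both tables, as did Ddit3 of the ATF4 arm. In the treatment table Sdf2l1 had r = 0.888 (exact permutation p = 0.00295) and rho = 0.818 (exact p = 0.0135), with r = 0.722 without the 2 farthest rats. Calr had r = 0.816 (exact p = 0.0099) and rho = 0.685 (exact p = 0.0473), with 0.594 without them, and Hsp90b1 had r = 0.743 (exact p = 0.0387) and rho = 0.818 (exact p = 0.0137), with 0.755 without them. Each of these had an adjusted p of 1.0. In the genotype table the same genes had r = 0.59 (exact p = 0.0455), 0.724 (exact p = 0.0367) and 0.718 (exact p = 0.036). Without the 2 farthest rats these were 0.203, 0.455 and 0.075, the value of Calr falling least.

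Xbp1 was near Hspa5 in the treatment table (r = 0.823, exact p = 0.00694, rho = 0.782, exact p = 0.0188, and r = 0.49 without the 2 farthest rats) and less so in the genotype table (r = 0.265, exact p = 0.533). Dnajb9 and Herpud1 had the smallest p of the members in the treatment comparison. Their r with Hspa5 was 0.323 and 0.0409 in the treatment table and -0.374 and -0.457 in the genotype table. The exact p of these 4 values was between 0.248 and 0.927. Without the 2 farthest rats they were 0.726 and 0.128 in the treatment table and -0.541 and -0.815 in the genotype table.

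Atf6 went the other way. Its r with Hspa5 was -0.797 in the genotype table (exact p = 0.0075, rho = -0.891 with exact p = 0.00389, -0.828 without the 2 farthest rats) and -0.66 in the treatment table (exact p = 0.0296, rho = -0.6 with exact p = 0.0776, -0.48 without them). It was the sole member with an r below -0.5 in both tables, and its adjusted p was 1.0 in each. The 5 genes of all with the highest r to Hspa5 were Tle3, Nelfcd, Pbxip1, Cnot3 and RGD1563015 in the genotype table (0.851 to 0.943) and Sppl2b, Sfpq, Xpnpep3, Mtmr6 and Zfyve1 in the treatment table (0.894 to 0.985), and neither set held a member.

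**Figure D5:**
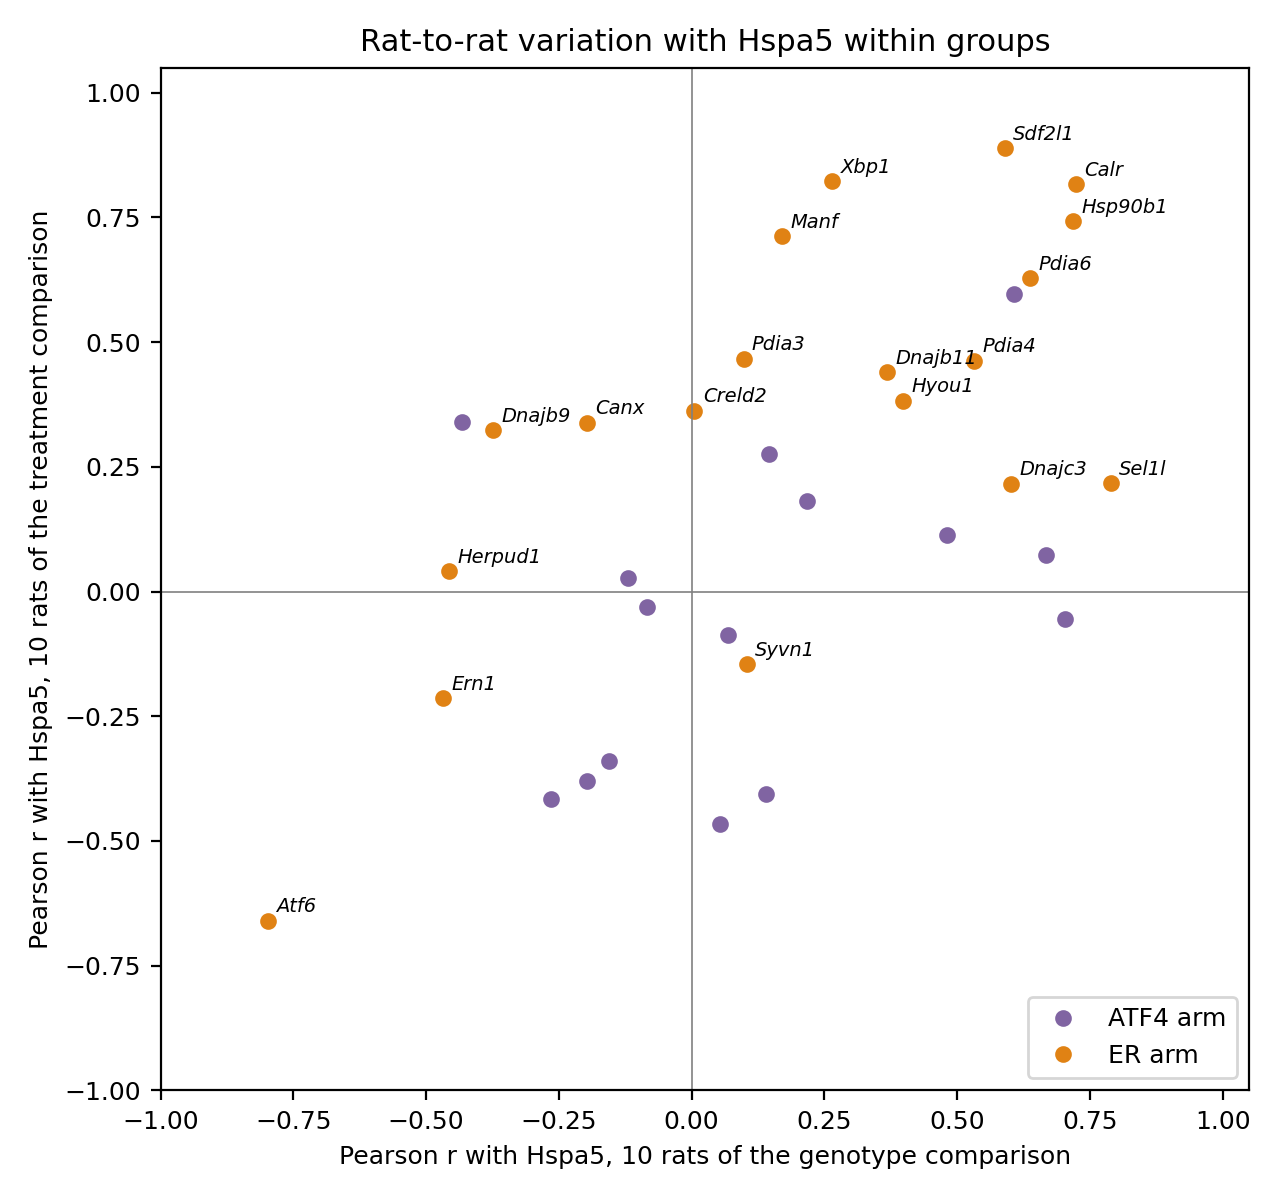
Pearson r of each member with Hspa5 over the 10 rats of the genotype comparison (x axis) and the 10 rats of the treatment comparison (y axis), group means removed, with ER-arm genes in orange and named and ATF4-arm genes in purple. Most ER-arm genes lie at upper right, with Sdf2l1, Calr, Hsp90b1 and Pdia6 above 0.5 on both axes. Atf6 alone lies below -0.5 on both axes.

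Genes of the ATF4 arm did not follow Asns alike in both tables. Of its 14 other genes, 5 had a positive r in the genotype table (50.5% of all genes) and the median was -0.28, with Atf4 itself at -0.717. In the treatment comparison 7 of 14 were positive (49.8% of all genes) and the median was 0.03, or 0.54 without TGNT replicate 1 and -0.09 without TGTR replicate 5. There Cebpb (r = 0.925), Atf5 (0.905), Psat1 (0.785) and Phgdh (0.762) were high, with an adjusted p of 0.0827 each by exact permutation. Without the rats farthest from the Asns median, TGNT replicate 1 and TGTR replicate 5, these were 0.576, 0.781, 0.687 and 0.949. Asns was correlated at an unadjusted p under 0.05 with 26.7% of all genes in this table and 12.8% in the genotype table. The 2 low rats also had the lowest sums of the 10 hippocampal markers, at 3005 and 2746 RPM against 3354 to 4939 RPM in the other 8 rats, and the part of this in the correlations was not tested. Genes with the highest r to Asns included Rev3l, Cnot1, Pabpc1 and Capza2 in the genotype table (0.963 to 0.973), and RGD1562079, Smpd2, Il16, Smpd3 and Nell2 in the treatment table (0.98 to 0.984), with no member among them.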

How the data were processed

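Hippocampal mRNA of 20 female rats was sequenced by the submitters, 1 library per rat (RNeasy extraction, Kapa stranded mRNA kit). The authors' deposited tables hold estimated counts per gene symbol, which the submitters' processing notes tie to bcl2fastq 2.17, Bowtie2 2.1.0, RSEM 1.2.15, edgeR and the rat genome rn6. The deposited TMM tables hold a signal, called RPM here, which is reads scaled to a common library total with TMM factors by the authors, with column sums from 930396 to 1027920. The genotype and treatment tables were made separately. The labels and the methods differ on the side of the hippocampus.

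Estimated counts were rounded to whole numbers (87.9 to 89.4% of the values of a table were whole already) and fitted for each comparison alone with edgeR 4.0.16 in R 4.3.3: TMM factors, the quasi-likelihood test and Benjamini-Hochberg adjustment over all 17168 genes, with no filter. A gene was called when its adjusted p was under 0.05 and the change was 1.5-fold or more. Log2 fold changes and 95% intervals come from that fit, and levels, means and SDs are in RPM. Exact two-sided permutation tests of the RPM means had a smallest possible p of 0.00794 for 5 against 5 rats and 0.00476 for 4 against 6. Correlations used log2(RPM + 1), with ranks permuted within groups for rho. Outlying rats were sought by Dixon's test in groups of 4 to 6. The fits were tested on simulated data.

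The members, pathway lists and marker lists were chosen with earlier results of these data known, and the pathway lists are therefore described by counts. Members were named by role, with rat values (lowest, median and highest for the 6 TGTR rats) for Atf4, Ddit3, Asns, Xbp1, Hspa5 and for those at an unadjusted p under 0.05. Atf5 of the genotype comparison was added after its values were seen, and 1 of the 5 genes most like Asns in the genotype table is not reported here. The alternatives were other size factors, filters on low counts, DESeq2 1.42.0, the exact and likelihood ratio tests of edgeR, limma-trend 3.58.1 with pseudocounts of 1 and 0.1, a replicate block and leaving out each rat. Promoters came from RefSeq on GRCr8, a different build from the counts, and were matched by symbol, with 31 of 38 found. Atf3, Gars, Ern1, Atf6, Manf, Pdia3 and Pdia6 had no window.

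The labels do not say whether rats with the same replicate number are paired, and the main fits treated them as unpaired. Residuals of same-numbered rats correlated at -0.21 to 0.34 in the genotype comparison and -0.58 to 0.14 in the treatment comparison. With so few rats these correlations cannot decide it.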

Additional observations from a re-analysis of the deposited data

Results flagged for a closer look

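Of 148 groups of 4 to 6 rats, 17 held a rat that Dixon's test at the 95% level set apart, and chance alone sets apart about 1 in 20 groups, or 7.4.

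Rats of the ATF4 arm were set apart mostly on the low side. Asns was at 102 RPM in TGNT replicate 2 of the genotype comparison (the others from 130.0), at 84.6 RPM in TGNT replicate 1 of the treatment comparison (the others from 106) and at 78.7 RPM in TGTR replicate 5 (the others from 96.5). Atf5 was at 30.1 RPM in the same TGNT replicate 1 of the treatment comparison (the others from 42.3). TGTR replicate 5, the library with the choroid plexus signal, was also low for Ddit4, at 31.1 RPM, and for Slc7a5, at 91.6 RPM. Chac1 was at 2.73 RPM in WTNT replicate 4 (the others from 4.64), and Trib3 at 0.127 RPM, a single read, in WTNT replicate 3.

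In the ER arm, TGTR replicate 1 was high for Calr, at 519 RPM (the others up to 466), and for Manf, at 15.6 RPM (the others up to 11.9). Hspa5 was at 605 RPM in TGNT replicate 2 of the genotype comparison (the others up to 541), Dnajc3 at 47.3 RPM in WTNT replicate 2 (the others up to 39.8) and Hyou1 at 254 RPM in WTNT replicate 5 (the others up to 230.0). On the low side were Pdia4 at 44.8 RPM in TGTR replicate 4, Syvn1 at 72.8 RPM in TGTR replicate 5, Pdia6 at 112 RPM in TGNT replicate 3 of the treatment comparison and Sel1l at 217 RPM in TGNT replicate 1 of the treatment comparison. What set these rats apart was not tested.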

How the results depend on the processing

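In the treatment comparison the members higher at an unadjusted p under 0.05 numbered 5, and 2 to 7 when single rats were left out. Scaling by library size alone gave 10, which moved the median of all genes by 0.037. Over all genes, those under that p in either direction numbered 843 in the main fit and 1036 by library size alone. With single rats left out they numbered 571 to 1207. Under every alternative 0 members were lower, those higher were all of the ER arm, and 0 members passed an adjusted p under 0.05 (Dnajb9 0.0755 to 1). In the genotype comparison single rats left out gave 0 to 1 higher (Creld2 without WTNT replicate 4) and 0 to 2 lower (Ddit4 and Dnajb11 without WTNT replicate 3, Atf5 without TGNT replicate 2). Over all genes there, 554 lay under that p in either direction in the main fit, and 358 to 986 with single rats left out. Values near 0 changed sign: Ddit3 in the genotype comparison was at 0.0097 by library size, 0.0059 and 0.0069 by limma-trend with pseudocounts of 1 and 0.1, and -0.0704 to 0.0672 with single rats left out. Ranges over single rats left out were -0.0125 to 0.0404 for Atf4 and -0.069 to 0.0203 for Hspa5 in the genotype comparison, and -0.0146 to 0.028 for Atf4 in the treatment comparison. The causes were not tested. Leaving out TGTR replicates 5 and 6 together, chosen after seeing the data, gave 5 higher (Dnajb9, Sdf2l1, Hspa5, Xbp1 and Herpud1). Over all genes, 681 then lay under that p in either direction. Atf3 and Trib3 averaged fewer than 10 counts per rat, too few to judge a difference in either.

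Whether rats with the same replicate number are paired is not known from the labels. With the replicate block the treatment comparison had 2 members higher at that p, Dnajb9 and Sdf2l1, the genotype comparison had 0, and Ddit3 in the genotype comparison was at 0.013. Over all genes, 409 lay under that p in either direction in the treatment comparison and 553 in the genotype comparison. A rat correlated best with its own number in 2 of 5 and 0 of 4 cases.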
